A study of Mus musculus with 14 samples.

Results

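Simple repeats are runs of a short DNA unit copied head to tail, such as (CA)n, and low-complexity tracts are stretches rich in 1 or 2 bases without an exact unit. Peaks whose centre lay in either kind of sequence were taken from 10 ChIP-seq peak lists of C2C12 cells, a mouse myoblast line that fuses into myotubes when serum is lowered. They were the peaks off the mitochondrial genome that the authors' HOMER annotation named Simple_repeat or Low_complexity. This gave 14660 of 517016 peaks (2.84%), of which 12442 lay in simple repeats and 2218 in low-complexity tracts. Units were grouped into families by pooling reverse complements and rotations, so that (CA)n and (TG)n form 1 family. The 203 unit names gave 118 families of simple repeats, and the low-complexity tracts gave 6.

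Cells were harvested on day 2 of differentiation, either as controls or after an siRNA (10 nM) that targets Myolinc, a long noncoding RNA (called siMyolinc here). Antibodies were directed at TDP-43 (3 control lists and 1 siMyolinc list), at RNA polymerase II phosphorylated on serine 2 of its tail (Pol II S2P), and at the muscle transcription factors MyoD and Myogenin (1 control and 1 siMyolinc list each). The labels do not say whether control cells received a control siRNA, nor whether the 3 TDP-43 control libraries came from separate cultures, so p-values across lists reflect only how far these lists vary, and that variation may be technical. Chromatin libraries cannot show how far Myolinc was depleted. The 4 input or IgG samples of the series were not analysed here.

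The peak scores were whole multiples of a step, taken as 1 sequence tag. Library size computed from the step was 962363 to 1455038 tags in the 3 TDP-43 control libraries and the Pol II S2P control library, and 3040130 to 3775523 tags in the 6 others. These sets are called the shallow and the deep libraries. All 4 shallow libraries were controls, and all 4 siMyolinc libraries were deep, so depth and treatment cannot be told apart for TDP-43 or Pol II S2P. The MyoD and Myogenin siMyolinc lists also stood apart in peak width, with a median of 75 bp against 217 to 249 bp in the other lists.

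TDP-43, encoded by Tardbp, is an RNA- and DNA-binding protein with a known preference for UG-rich RNA and TG-rich single-stranded DNA. (CA)n and (TG)n tracts are the most common dinucleotide repeats of rodent genomes and are scattered through introns and between genes. MyoD and Myogenin are basic helix-loop-helix factors that bind the E-box, CANNTG. Pol II S2P marks elongating polymerase in gene bodies.

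The following stretches of RefSeq sequence (build GRCm38.p6) show what such peaks hold. Sequence could be read only where a peak overlapped the promoter window of a RefSeq gene, which held 30 or more upstream bases for 19 repeat peaks. All are written 5′ to 3′ on the plus strand, and capitals mark tandem copies of the named unit. The first is part of a (CACG)n peak with 8 tags in TDP-43 control 2 and 5 tags in the Pol II S2P control, shown for the CpG-holding family described below (chr8:112475662-112475756, before the start of Gm39254).
(CACG)n: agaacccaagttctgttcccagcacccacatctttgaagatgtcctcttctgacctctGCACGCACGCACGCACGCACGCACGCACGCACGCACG
The next is part of a (TG)n peak with 5 tags in TDP-43 control 1, shown because its TG copies were broken at regular places by CG (chr9:98299811-98299904, before the start of Gm46126).
(TG)n: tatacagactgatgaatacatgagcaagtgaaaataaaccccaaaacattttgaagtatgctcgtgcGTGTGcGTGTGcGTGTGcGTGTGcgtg
The third is part of a (CCCG)n peak with 7 tags in TDP-43 control 1, shown as a second CpG-holding unit (chr2:93580289-93580470, before the start of Gm33061).
(CCCG)n: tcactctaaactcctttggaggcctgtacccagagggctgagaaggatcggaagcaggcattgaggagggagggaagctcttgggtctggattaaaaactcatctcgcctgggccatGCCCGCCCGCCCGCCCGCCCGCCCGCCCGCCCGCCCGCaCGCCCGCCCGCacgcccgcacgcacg
The last is a whole peak of a narrow list, shown for a muscle factor, with 155 tags in Myogenin siMyolinc (chr2:18196730-18196804, before the start of Gm39761).
(CAGG)n: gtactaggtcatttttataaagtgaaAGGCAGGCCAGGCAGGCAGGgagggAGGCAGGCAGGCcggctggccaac
The (CAGG)n peak held no E-box, and a whole (AGGGGG)n peak of MyoD siMyolinc held none. A whole (CAG)n peak of MyoD siMyolinc with 25 tags (chr6:47649407-47649481) held 1, of the form CAGCTG. As background, 28.5% of 32851 promoter windows cut to 75 bases held CANNTG and 3.53% held CAGCTG, whose patterns read alike on both strands. CACGCACG or its reverse complement stood in 0.204% of windows cut to 95 bases, and TGTGTGTG or its reverse complement in 1.67%. Of the 11 such peaks with a tandem run, the longest run read as named on the plus strand in 10 and on the other strand in 1.

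Repeat peaks made up a larger share of the 4 shallow lists than of the 6 deep lists. In the TDP-43 controls 2858 of 29703 peaks (9.62%), 1160 of 10571 (10.97%) and 749 of 8162 (9.18%) were repeat peaks. After siMyolinc 373 of 24960 TDP-43 peaks were (1.49%, 95% Wilson interval 1.35% to 1.65%, which like all intervals here covers counting error only). The control mean was 9.92% ± 0.936 (SD, n = 3), 6.64-fold above the siMyolinc list, and the siMyolinc value lay below all 3 controls. An exact two-sided permutation test gave p = 0.25, the smallest that 3 lists against 1 allow.

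The Pol II S2P lists differed by a like amount, with 10.3% of 10715 peaks in control and 1.59% of 116064 after siMyolinc. For the muscle factors the siMyolinc lists had the higher share when all peaks were counted. Repeat peaks were 1.56% of the MyoD control list and 2.07% of the MyoD siMyolinc list, and 2.28% and 2.75% of the Myogenin control and siMyolinc lists. That direction turned among peaks of each list's upper scores, from its median upward, with 1.12% in MyoD control and 0.770% after siMyolinc, and 1.18% and 0.994% for Myogenin. With tied scores this cut kept 61.7% and 50.3% of the MyoD control and siMyolinc peaks, and 55.3% and 50.2% for Myogenin. The direction also turned with peaks weighted by score (1.39% and 1.32% for MyoD, 1.76% and 1.53% for Myogenin). With a single list per condition, none of these 3 antibodies has a replicate to check its difference against.

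**Figure D1:**
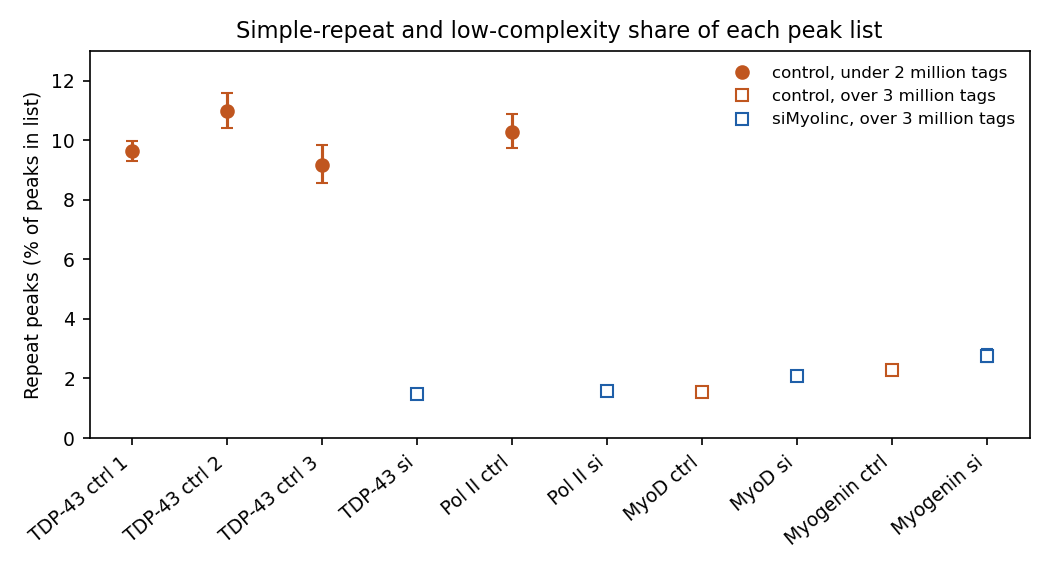
Share of peaks in each list (y axis, percent) that lie in simple repeats or low-complexity tracts, for the 10 lists (x axis). Points are single lists and bars are 95% Wilson intervals. The 4 lists from libraries under 2000000 tags sit between 9.18% and 10.97%, and the other 6 between 1.49% and 2.75%.

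Over all lists, the 6 controls averaged 7.32% ± 4.23 (SD, n = 6) and the 4 siMyolinc lists 1.98% ± 0.577 (SD, n = 4). The ranges overlapped, because the MyoD and Myogenin controls lay among the siMyolinc lists. The exact permutation p was 0.0476, and 0.109 after Benjamini-Hochberg adjustment over 16 tests. The 4 TDP-43 lists did not differ from the 6 others beyond their spread (7.82% ± 4.28, n = 4, against 3.42% ± 3.39, n = 6, exact permutation p = 0.171, adjusted 0.319). Within the deep libraries alone, control minus siMyolinc was -0.0544 percentage points (2 lists against 4, exact permutation p = 0.933). Antibody and condition are mixed there, because the 2 controls were MyoD and Myogenin, and the siMyolinc lists also held TDP-43 and Pol II S2P. For MyoD and Myogenin themselves, siMyolinc minus control was 0.510 and 0.472 points. Within the shallow libraries, TDP-43 minus Pol II S2P was -0.361 points (3 lists against 1).

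The share also depended on how far down a list was read. With every list cut to its best 8162 peaks, TDP-43 control 1 fell from 9.62% to 2.67%, whereas controls 2 and 3 had 8.78% and 9.18% and the Pol II S2P control 8.74%. The deep lists then held 0.417% to 0.882%, below all 4 shallow lists. The authors' annotation gives promoters, exons and CpG islands before repeats, and every repeat peak here was therefore in an intron or between genes. Counted over intron and intergenic peaks alone, the TDP-43 shares were 13.4%, 16.9% and 14.6% in control and 1.72% after siMyolinc.

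Satellite peaks, which lie in long tandem arrays, were split by depth in the same direction. They were 0.700%, 0.899% and 0.956% of the TDP-43 control lists and 0.0801% of the siMyolinc list, and 0.793% and 0.118% of the Pol II S2P control and siMyolinc lists. The MyoD and Myogenin lists held 0.106% to 0.269%. Interspersed elements did not follow. SINE peaks, short interspersed elements, were 3.92%, 3.24% and 2.85% of the TDP-43 control lists and 10.5% of the siMyolinc list. LINE peaks, long interspersed elements, were 9.18%, 9.70% and 9.23% in control and 9.76% after siMyolinc. Of all peaks in annotated repeats, the simple and low-complexity ones were 32.5%, 37.3% and 34.3% in the TDP-43 controls and 4.46% after siMyolinc.

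(CA)n and (TG)n tracts were the most frequent family in all 10 lists. They were 54.4% of 2575, 53.6% of 1070 and 53.0% of 700 simple-repeat peaks in the TDP-43 controls, and 47.0% of 330 after siMyolinc. The control mean was 53.7% ± 0.725 (SD, n = 3), and the siMyolinc value lay below all 3 (exact permutation p = 0.25, the smallest possible). The interval of the siMyolinc value, 41.7% to 52.4%, reached nearly to the lowest control. Counted over all peaks, the siMyolinc value was the higher one with the other antibodies: Pol II S2P had 43.9% and 46.2% in control and siMyolinc, MyoD 40.3% and 49.6%, and Myogenin 37.9% and 44.7%.

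The 4 TDP-43 lists averaged 52.0% ± 3.42 (SD, n = 4) and the 6 others 43.8% ± 4.19 (SD, n = 6), with the MyoD siMyolinc list above the TDP-43 siMyolinc list. The exact permutation p was 0.0190, and 0.0762 after adjustment. When each list was limited to its upper scores, from its median upward, the groups did not overlap. Because scores were tied, this cut was unequal between lists. It kept 55.4%, 63.9% and 63.5% of the peaks of the TDP-43 controls, 71.2% after siMyolinc, and 50.2% to 62.2% in the 6 others. The TDP-43 lists then had 43.7%, 49.5% and 48.3% in control and 49.5% after siMyolinc, against 26.8% to 39.0% in the 6 others (difference 13.4 points, exact permutation p = 0.00476, the smallest possible, adjusted 0.0381). There the siMyolinc list was 2.32 points above the mean of the TDP-43 controls, the opposite of its place among all peaks. The 3 other antibodies turned too, with 39.0% and 38.4% in control and siMyolinc for Pol II S2P, then 38.3% and 32.5% for MyoD, then 30.8% and 26.8% for Myogenin. In lists of equal length the TDP-43 siMyolinc list had 31.25%, below the 34.2%, 50.5% and 53.0% of the TDP-43 controls. There TDP-43 minus others was 13.2 points (exact permutation p = 0.0619, adjusted 0.190). Among peaks of at least 10 tags, which left 21 to 273 simple-repeat peaks in the TDP-43 controls and 26 in the siMyolinc list, TDP-43 minus others was -2.54 points.

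Both orientations of the tract were about equally common. TDP-43 control 1 had 727 (CA)n and 675 (TG)n peaks, control 2 had 283 and 291, control 3 had 194 and 177, and the siMyolinc list 77 and 78. Within introns of genes whose strand could be looked up, TG lay on the sense strand, which reads like the transcript, in 54.4% of 390, 51.8% of 168 and 47.0% of 100 peaks of the TDP-43 controls, with intervals that all held 50%. It did so in 66.7% of 42 peaks after siMyolinc (51.6% to 79.0%) and in 60.4% of 288 MyoD siMyolinc peaks (54.7% to 65.9%). The intervals of all remaining lists held 50%. Their shares were 57.7% in MyoD control (48.9% to 66.1%), and 55.5% and 54.5% in the Pol II S2P control and siMyolinc lists. The Myogenin control and siMyolinc lists had 56.0% and 55.6%. How often TG lies on the sense strand over all introns was not read, so 50% is not a measured background.

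(GA)n and (TC)n tracts, the purine-pyrimidine dinucleotide family, were second in 7 of the lists. They were 14.8%, 14.1% and 16.4% of simple-repeat peaks in the TDP-43 controls and 7.58% after siMyolinc. The Pol II S2P lists had 21.7% and 11.9%, the MyoD lists 10.2% and 6.77%, and the Myogenin lists 12.0% and 6.26%, in control and siMyolinc. The family was lower after siMyolinc for all 4 antibodies when all peaks were counted, and the overall means were 14.9% ± 3.99 (SD, n = 6) and 8.12% ± 2.55 (SD, n = 4; exact permutation p = 0.0190, adjusted 0.0762). The values of the deep lists, 6.26% to 12.0%, all lay below those of the shallow lists, 14.1% to 21.7%. With labels exchanged only within antibodies, the mean difference was 6.62 points (exact permutation p = 0.0312, the smallest that 32 arrangements allow, adjusted 0.25 over 8 measures). In lists of equal length Myogenin turned, with 2 of 58 repeat peaks in control and 4 of 67 after siMyolinc.

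**Figure D2:**
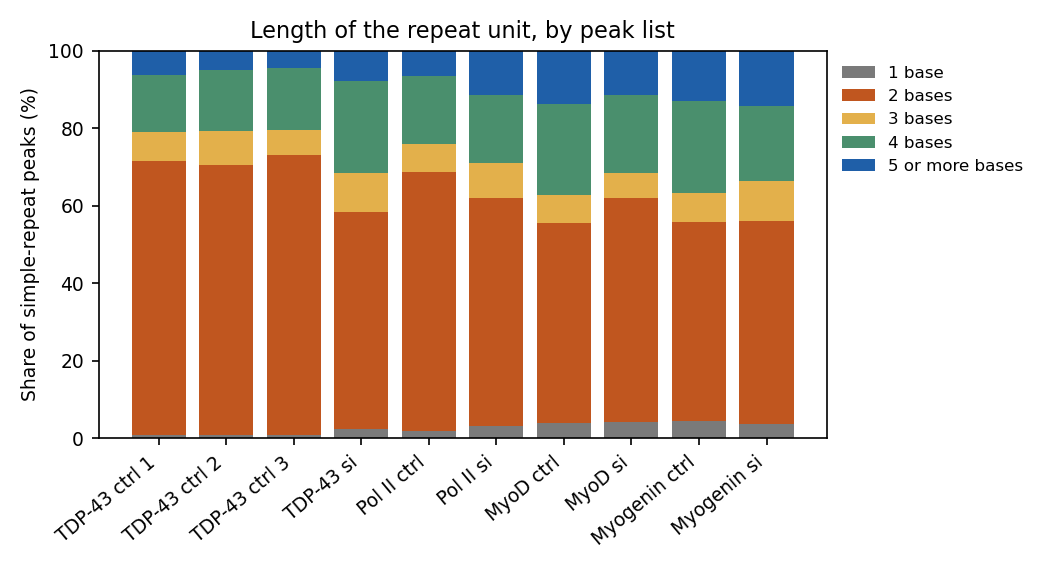
Stacked bars of the length of the repeat unit, as a percentage of the simple-repeat peaks of each list (y axis), for the 10 lists (x axis). Units of 2 bases take 66.8% to 72.3% in the 3 TDP-43 controls and the Pol II S2P control, and 51.3% to 58.8% in the other 6 lists.

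Dinucleotide units as a whole took 70.8%, 69.7% and 72.3% of simple-repeat peaks in the TDP-43 controls and 56.1% after siMyolinc. Tetranucleotide units took 14.8%, 15.7% and 16% in the controls and 23.6% after siMyolinc. Units of 5 or 6 bases were 6.33%, 4.95% and 4.43% in the controls, 7.88% after siMyolinc and 6.53% to 14.3% with the other antibodies (exact permutation p = 0.0190 over 4 against 6 lists, adjusted 0.0762). (A)n and other mononucleotide tracts were 0.699%, 0.841% and 0.714%, then 2.42%, against 1.81% to 4.39% (p = 0.0143 by the same exact test, adjusted 0.0762). Low-complexity tracts were 9.90%, 7.76% and 6.54% of repeat peaks in the TDP-43 controls, 11.5% after siMyolinc and 9.62% to 23.0% with the other antibodies (p = 0.0238 by the same exact test, adjusted 0.0762). None of the 16 tests, 8 measures in 2 contrasts, passed an adjusted p of 0.05, and 7 had an unadjusted p under 0.05. With the Pol II S2P control left out, these 3 measures passed (exact permutation tests, adjusted p = 0.0423 each).

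The families with CpG followed another pattern, described here without a test because they were singled out after their values were seen. The (CACG)n and (CGTG)n family, an alternating purine-pyrimidine tetranucleotide with a CpG in each copy, was 4.37%, 6.29% and 7.21% of repeat peaks in the TDP-43 controls (125, 73 and 54 peaks). It was 5.90% after siMyolinc (22 peaks). It was 4.90% in the Pol II S2P control and 1.14% after siMyolinc, and 0.355% to 0.882% in the 4 MyoD and Myogenin lists. Per 10000 peaks of the whole list, the family had 42.1, 69.1 and 66.2 peaks in the TDP-43 controls and 8.81 after siMyolinc. The (CA)n and (TG)n family had 472, 543 and 455, then 62.1. The shares of repeat peaks depended on list length. With each list cut to its best 8162 peaks, the family was 42 of 218 repeat peaks in TDP-43 control 1 (19.3%), 8.09% and 7.21% in controls 2 and 3, and 15 of 72 after siMyolinc (20.8%). For Pol II S2P the direction turned, with 6.17% in control and 3 of 41 peaks after siMyolinc (7.32%). All units holding CpG together were 7.69%, 10.6%, 13.1% and 10.0% of simple repeats in the 4 TDP-43 lists, 8.13% and 2.50% in the Pol II S2P lists, and 1.16% to 3.02% in the others.

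AT-rich tracts ran the other way. They were 0.490%, 0.776% and 0.935% of repeat peaks in the TDP-43 controls and 0.907% in the Pol II S2P control, then 4.02% and 5.22% after siMyolinc. The MyoD and Myogenin lists held 7.10% to 8.76%. The mean GC content of the units was 52.1% to 53.8% in the TDP-43 controls, 49.9% after siMyolinc, 50.3% and 46.8% in the Pol II S2P lists, and 40.9% to 46.7% in the MyoD and Myogenin lists.

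Repeat peaks were mostly weak. Their median was 6, 5 and 5 tags in the TDP-43 controls against 8, 6 and 6 for all peaks of the same lists. In the TDP-43 siMyolinc list both medians were 7 tags. The other medians were 5 against 6 tags (Pol II S2P control), 9 against 11 (Pol II S2P siMyolinc), 7 against 8 (MyoD control), 13 against 24 (MyoD siMyolinc), 11 against 15 (Myogenin control) and 58 against 137 (Myogenin siMyolinc). In each of the 10 lists a smaller share of repeat peaks than of all peaks reached the list's median score, from 18.1% against 50.2% in Myogenin siMyolinc to 57.9% against 71.2% in TDP-43 siMyolinc.

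**Figure D3:**
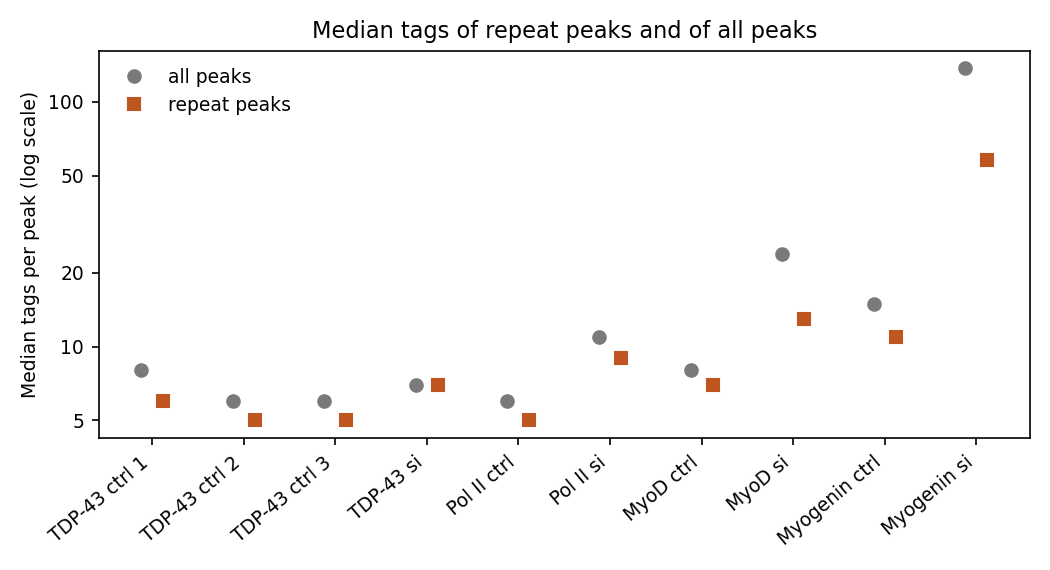
Median number of tags per peak (y axis, log scale) for all peaks and for repeat peaks of each list (x axis). The repeat peaks lie below all peaks in 9 lists, most clearly at 58 against 137 tags in Myogenin siMyolinc, and at the same 7 tags in TDP-43 siMyolinc.

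With each list cut into quartiles by score, the repeat share went up from the best to the lowest quartile in every list. In TDP-43 control 1 it went from 2.59% to 5.60%, 11.3% and 18.97%. It went from 5.75% to 17.8% in control 2, from 4.66% to 15.1% in control 3 and from 0.849% to 2.12% after siMyolinc. The best quartile of each shallow list thus held a larger share than the whole of any deep list, except for TDP-43 control 1, whose 2.59% lay below the 2.75% of Myogenin siMyolinc. Inside the repeat peaks, the (CA)n and (TG)n share of simple repeats also rose with falling score in TDP-43 control 1, from 31.5% to 60.0%. The (CACG)n family ran against this. Its median was 8, 7 and 6 tags in the TDP-43 controls and 9 after siMyolinc, above the median of all repeat peaks in each of these lists.

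**Figure D4:**
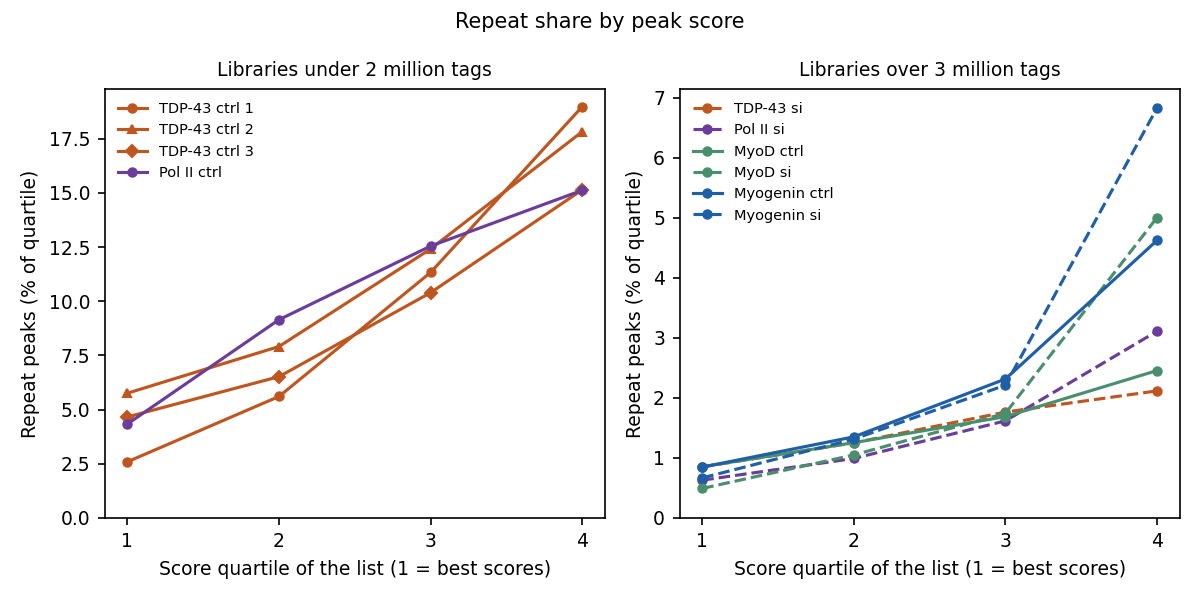
Share of repeat peaks (y axis, percent) in each score quartile of a list (x axis, 1 is the best), for libraries under 2000000 tags at left and over it at right, with different y scales. Every line rises from left to right, in TDP-43 control 1 from 2.59% to 18.97%.

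A few repeat peaks stood near the top of their lists. The strongest in TDP-43 controls 2 and 3 and in the Pol II S2P control was the same (TCTG)n tract upstream of Chl1, a neural cell adhesion gene (chr6:103314493-103314741, intergenic, -196259 bp from the gene's start, build mm10). It had 32, 48 and 38 tags in the TDP-43 controls and 68 in the Pol II S2P control, where it ranked 11 of the list. No deep list had a peak there, and the reason was not tested. A pair of (TGGA)n tracts upstream of Rhou, a small GTPase gene, led TDP-43 control 1. The nearer one (chr8:123617458-123617706) had 44, 18 and 13 tags in the TDP-43 controls, 12 in the Pol II S2P control and 55 in MyoD siMyolinc, and no peak in the TDP-43 siMyolinc list. The farther one (chr8:123600473-123600721) had 42, 12 and 14 tags in the TDP-43 controls, 18 in the Pol II S2P control and 13 in MyoD control. At all 3 tracts the TDP-43 controls and the Pol II S2P control had a peak and the TDP-43 siMyolinc list had none. These tracts were picked as leading peaks of control lists. Of all peaks of TDP-43 controls 1, 2 and 3, the siMyolinc list met only 5.88%, 7.08% and 7.36%. An AT-rich tract nearest to 2810429I04Rik, with 21 tags, was second in TDP-43 control 2.

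In the first intron of Itm2a, a membrane protein gene, a (CG)n tract (chrX:107402474-107402692) was the next strongest of TDP-43 control 3, with 15 tags. In the TDP-43 siMyolinc list a GC-rich tract in an intron, nearest to Ankrd28, an ankyrin repeat gene, had 14 tags and rank 222. The leading (CA)n or (TG)n peaks of the TDP-43 lists had 22 tags at Col26a1, a collagen gene (control 1), 13 at Stk33, a kinase gene (control 2), 13 upstream of Pak6, also a kinase gene (control 3), and 11 at Tbc1d22a (siMyolinc).

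The Stk33 region shows how a name can differ between lists. Control 2 had the (CA)n peak with 13 tags, whereas peaks at the same place in control 1 (17 tags), control 3 (10 tags) and the siMyolinc list (12 tags) had centres in a LINE or in plain intron and were not counted as repeat peaks.

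The muscle factors had other leading tracts. In MyoD control they were (CA)n with 21 tags near Gm19510 and (TG)n with 19 tags near F2r, the thrombin receptor gene. In MyoD siMyolinc they were (CA)n with 65 tags near Cartpt, a neuropeptide gene, and (CCTTG)n with 59 tags in an intron, nearest to Slc5a4a. Myogenin control was led by (TCTA)n with 47 tags near Olfr153 and (CA)n with 45 tags in an intron, nearest to the kinase gene Stk36. Myogenin siMyolinc was led by (CATTC)n with 391 tags and rank 6 upstream of Arid1b, a chromatin remodeller gene (chr17:4626302-4626376), and by (TATG)n with 281 tags upstream of Mapk14, which encodes the p38 alpha kinase. At the Arid1b place Myogenin control had a (CACTC)n peak of 16 tags, and a MyoD siMyolinc peak of 13 tags had been annotated as a satellite of the same unit. Pol II S2P siMyolinc was led by (CCTG)n with 37 tags, nearest to the cadherin gene Cdh26.

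Repeat peaks recurred between TDP-43 control libraries less than other peaks, by overlap of 1 bp or more. Of the control 1 repeat peaks 212 of 2858 (7.42%) were met by a control 2 peak and 144 (5.04%) by a control 3 peak, where 13.4% and 10.9% of all control 1 peaks were. Of the control 2 repeat peaks 18.2% and 13.2% were met by controls 1 and 3, against 37.6% and 27.5% of all peaks. Of the control 3 repeat peaks 17.5% and 21.0% were met by controls 1 and 2, against 39.8% and 35.7%. At least 1 other control met 9.45%, 24.1% and 27.9% of the repeat peaks of controls 1, 2 and 3, against 19.05%, 50.3% and 56.3% of all peaks. Both others met 86, 84 and 79 repeat peaks (3.01%, 7.24% and 10.5%), against 5.27%, 14.9% and 19.2% of all peaks.

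The families differed strongly in this. For (CA)n and (TG)n, at least 1 other control met 7.13%, 19.2% and 23.5% of the peaks of controls 1, 2 and 3, and for (GA)n and (TC)n 2.63%, 7.95% and 12.2%. For the (CACG)n family the shares were 47.2%, 65.8% and 66.7% (59 of 125, 48 of 73 and 36 of 54 peaks), above those of all peaks. For (CAG)n and (CTG)n they were 39.0%, 70.2% and 80.0%, and for (CG)n 56.3%, 76.2% and 78.9% of 32, 21 and 19 peaks. These families were picked out after their values were seen, so no test is given. The same order of the (CACG)n, (CA)n and (TG)n, and (GA)n and (TC)n families held in each of the 3 controls. These 3 orders are not independent, because an overlap between a pair of controls counts for both. Of 55 places with a repeat peak in all 3 TDP-43 controls, 16 were (CA)n or (TG)n alone, 11 were of the (CACG)n family and 6 were (CAG)n or (CTG)n. At 17 of the 55 the Pol II S2P control also had a repeat peak, and at 1 the TDP-43 siMyolinc list did. The same counts were not made for places of all peaks.

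**Figure D5:**
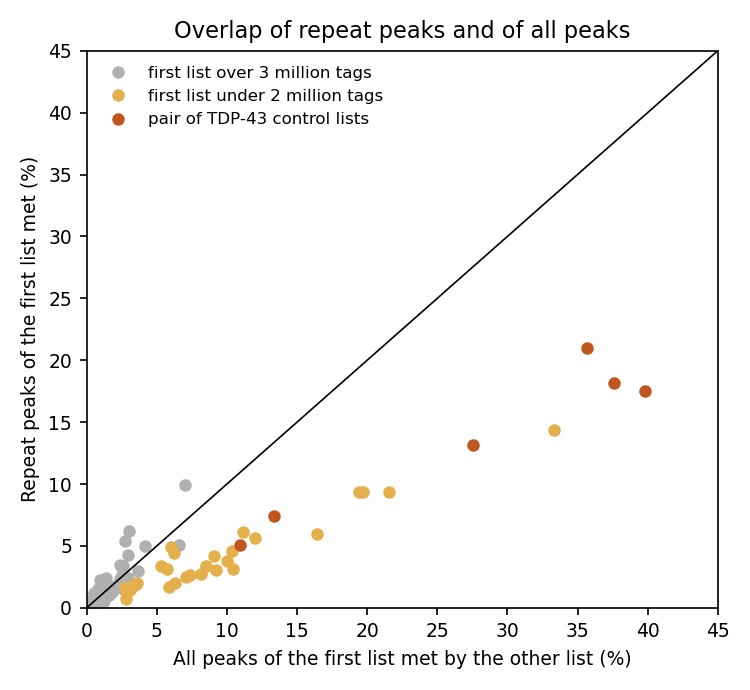
Share of repeat peaks of a first list met by a peak of another list (y axis, percent) against the same share for all peaks of the first list (x axis, percent), for the 90 ordered pairs of lists, with a line of equality. All 36 points whose first list is shallow lie below the line, among them the 6 pairs of TDP-43 controls at 5.04% to 21.0%, and 29 of the 54 points with a deep first list do.

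Between conditions few repeat peaks were found again. The TDP-43 siMyolinc list met 49 of 2858 (1.71%), 29 of 1160 (2.50%) and 20 of 749 (2.67%) repeat peaks of controls 1, 2 and 3, where it met 5.88%, 7.08% and 7.36% of all their peaks. In the opposite direction the controls met 37 (9.92%), 23 (6.17%) and 13 (3.49%) of the 373 repeat peaks of the siMyolinc list, against 6.995%, 2.997% and 2.41% of all its peaks, so repeat peaks were not the less shared class from that side. Pol II S2P siMyolinc met 3.18% of the repeat peaks of its control, against 10.5% of all peaks. For MyoD these were 1.25% against 1.77%, and for Myogenin 0.457% (12 of 2625) against 0.355%. Across antibodies, the TDP-43 controls 1, 2 and 3 met 14.3%, 9.35% and 5.99% of Pol II S2P control repeat peaks, against 33.3%, 19.4% and 16.4% of all its peaks.

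Merging overlapping repeat peaks of the 10 lists gave 13848 places. Of these 13243 (95.6%) had a repeat peak in a single list, 605 in 2 or more and 15 in 5 or more. Only peaks named as repeats were merged, so a peak with another name at the same place was not counted. All peaks were not merged in this way, so these counts have no background over all peaks. A pair of places reached 6 lists. The first was a (CTG)n tract nearest to B230209E15Rik (chr7:61017623-61018125), with 10, 5 and 8 tags in the TDP-43 controls, 5 and 6 in the Pol II S2P control and siMyolinc lists, and 16 in MyoD siMyolinc. The other was a (CAGAG)n tract near Cep128, a centriole gene (chr12:91254898-91255167), with 5 tags in each TDP-43 control, 6 and 8 in the Pol II S2P lists and 8 in MyoD control. Neither had a peak in TDP-43 siMyolinc or in either Myogenin list.

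Places in 5 lists included a (CAGTG)n tract near Capza2, the gene of an actin capping subunit, with 9, 5 and 5 tags in the TDP-43 controls, 9 in the Pol II S2P control and up to 113 in Myogenin siMyolinc. They also included (CAG)n near Ano3 (24 and 6 tags in TDP-43 controls 1 and 2, and 26 in Pol II S2P siMyolinc), (CCG)n near Kif14, a kinesin gene (13, 8 and 8 tags in the TDP-43 controls), and (CGTG)n near 1700009N14Rik (13, 5 and 13 tags). Of the 15 places in 5 or more lists, 4 held (CA)n or (TG)n peaks, among them a (TG)n tract near 4931417E11Rik with 21, 7 and 5 tags in the TDP-43 controls, and that family held 5900 of the 14660 repeat peaks.

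Repeat peaks of the shallow lists lay farther from gene starts than the other intron and intergenic peaks. The share in introns was 36.8%, 37.7% and 36.6% in the TDP-43 controls, 37.8% after siMyolinc and 35.3% to 43.04% in the other lists, below that of all intron and intergenic peaks in each of the 10 lists (45.2%, 43.1%, 43.4% and 46.2% for TDP-43). The median distance to the nearest start was 71742, 72112 and 69288 bp in the TDP-43 controls, against 38190, 36006 and 37049 bp for all intron and intergenic peaks there. It was 83175 against 42314 bp in the Pol II S2P control. After siMyolinc the TDP-43 repeat peaks had a median of 47955 bp against 39424 bp, and in the other 5 deep lists the 2 medians were closer, as in MyoD control (54501 against 52378 bp).

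The nearest genes of repeat peaks were counted in gene lists. Of 50 neuronal and synaptic genes, 22 were nearest to a repeat peak in TDP-43 control 1, 10 in control 2, 8 in control 3 and 2 after siMyolinc, where 7.88%, 3.48%, 2.29% and 1.30% of 21896 protein-coding genes were. Among them were Cntnap2, a contactin-associated adhesion gene, the glutamate receptor gene Grm7 and the postsynaptic adhesion gene Nlgn1, each in at least 2 controls. The Pol II S2P control had 14 (background 3.27%), Pol II S2P siMyolinc 12 (5.64%), the MyoD lists 8 (3.55%) and 20 (7.08%), and the Myogenin lists 20 (7.60%) and 5 (1.89%). For peaks of any kind the shares were 46 of 50 neuronal genes and 46.5% of protein-coding genes in TDP-43 control 1, and 40 of 50 and 42.5% after siMyolinc. Gene length was not matched.

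Of 78 genes of muscle structure and contraction, 8, 6 and 3 were nearest to a repeat peak in the TDP-43 controls and 2 after siMyolinc, which is 10.3%, 7.69%, 3.85% and 2.56% against 7.88%, 3.48%, 2.29% and 1.30% of protein-coding genes. MyoD control also lay above its background (6.41% against 3.55%). The other 5 lists lay below theirs: 2.56% against 3.27% and 5.64% in the Pol II S2P lists, 3.85% against 7.08% in MyoD siMyolinc, and 6.41% against 7.60% and 1.28% against 1.89% in the Myogenin lists. For peaks of any kind, the muscle genes also lay above protein-coding genes in the TDP-43 lists. The shares were 70.5%, 34.6% and 25.6% against 46.5%, 25.4% and 20.9% in the controls, and 57.7% against 42.5% after siMyolinc. In the first control, (CGTG)n with 14 tags stood upstream of Cacng1, a calcium channel subunit gene of skeletal muscle (chr11:107724334-107724582, -7982 bp from the start), and (TC)n with 7 tags near Nebl, a nebulin-like actin-binding gene. In the third, (TG)n with 6 tags lay in an intron of Mybpc1, a slow myosin-binding protein gene. The siMyolinc list had (TTC)n with 6 tags near Sgcd, a sarcoglycan gene. These peaks had 6 to 14 tags, where the median of all peaks was 8 tags in control 1, 6 in control 3 and 7 in the siMyolinc list.

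Of 40 myogenic regulator genes, 5, 1 and 1 were nearest to a repeat peak in the TDP-43 controls (12.5%, 2.50% and 2.50%) and 1 after siMyolinc (2.50%), against the same backgrounds. For peaks of any kind their shares were 65%, 40% and 42.5% in the controls and 72.5% after siMyolinc, against 46.5%, 25.4%, 20.9% and 42.5%. Mef2c, the gene of a muscle transcription factor, was nearest to (TG)n peaks of 8 and 6 tags in controls 1 and 3 and to a (CA)n peak of 8 tags after siMyolinc, at 3 different places upstream (-471087, -536622 and -456122 bp). The Pol II S2P lists had 4 and 8 of the 40 (background 3.27% and 5.64%), the MyoD lists 3 and 10 (3.55% and 7.08%), and the Myogenin lists 8 and 2 (7.60% and 1.89%). MyoD siMyolinc had a (TG)n peak of 46 tags in an intron of Runx1 (chr16:92746729-92746803). Of 25 hepatocyte genes, a list for another tissue, 2, 0 and 0 were nearest to a repeat peak in the TDP-43 controls and 1 after siMyolinc. These are 8%, 0%, 0% and 4%, against 7.88%, 3.48%, 2.29% and 1.30% of protein-coding genes. The Pol II S2P lists had 4% and 4% (background 3.27% and 5.64%), the MyoD lists 4% and 8% (3.55% and 7.08%), and the Myogenin lists 4% and 0% (7.60% and 1.89%).

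The 10 nearest genes with the most places were Mir28c (21), Cdh8, Cdh9, Gm2516 and Tenm3 (20 each), Cntnap5a (19), and Brinp1, Cdh6, Cntnap2 and D3Ertd751e (17 each). Cdh6, Cdh8 and Cdh9 encode cadherins, Tenm3 a teneurin and Cntnap2 and Cntnap5a contactin-associated proteins, all of them cell adhesion molecules. These genes were chosen by counts to which TDP-43 control 1 added most among the TDP-43 lists. Because repeat peaks chose the genes, high repeat shares there follow from the choice in the lists that supplied the places. Repeat peaks were 51 of 166 peaks at the 10 genes in TDP-43 control 1, 22 of 60 in control 2 and 9 of 52 in control 3. They were 0 of 109 after siMyolinc. Over the whole lists they were 9.62%, 10.97%, 9.18% and 1.49%. The Pol II S2P control had 30 of 83, against 10.3% of its whole list. The deep lists of the other antibodies had 2.27% to 3.48% at these genes, against 1.56% to 2.75% of whole lists. Tenm3 and Cntnap2 are long genes, of 1297160 and 2241333 bp.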

How the data were processed

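Per the file headers, the authors deposited 1 HOMER-annotated peak list per library (build mm10), named as called against IgG. Per the submitters' processing notes the tool was HOMER; its version and settings, the aligner, and the handling of reads that match several places: not given in the sources used here. The deposited peak score is the authors' value per peak and was used only inside its list. The deposited focus ratio, a fraction, was not compared. Scores were multiples of a step within a tolerance of 0.05 for 100% of peaks in every list (the 1% highest were set aside to find it). Library tags assume HOMER's scaling to 10000000 tags, which no header states.

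Computed here with Python 3.11.15, pandas 2.3.3, NumPy 2.4.6 and SciPy 1.17.1 were families, shares with 95% Wilson intervals, overlaps of 1 bp or more, and exact two-sided permutation tests over lists (210 arrangements for 4 against 6, smallest p 0.00476). Benjamini-Hochberg adjustment ran over 16 tests for the 10 lists and separately over 8 for TDP-43 control against siMyolinc. Scripts were tested on simulated data. The 42 peaks on the mitochondrial genome were left out. Of 7044 nearest genes, 6612 were found in the RefSeq table (GRCm38.p6). Repeat peaks named in the text come from the 3 leading ones of each list, the leading (CA)n or (TG)n peak of each TDP-43 list, the places in most lists, the best peaks of the muscle lists, the genes with most places and the largest families; the CpG, GC and AT measures and the recurrence by family were chosen after values were seen. The members, gene lists and tests were chosen with earlier results of these data known. A test with labels exchanged only within antibodies was added after seeing the data (32 arrangements, adjusted over 8 measures). Alternatives tried are listed in the closing section. Replicate numbers paired no samples. A few items that these rules select are not reported here.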

Additional observations from a re-analysis of the deposited data

Results flagged for a closer look

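The repeat share of peaks differed in opposite directions after siMyolinc with different antibodies when all peaks were counted. SiMyolinc minus control was -8.43 percentage points for TDP-43 and -8.70 points for Pol II S2P, and 0.510 points for MyoD and 0.472 points for Myogenin. Counting intervals did not overlap between the conditions of any antibody, but they cover no variation between libraries. All 3 TDP-43 controls lay above the siMyolinc list. The opposite direction was lost among peaks at or above the list's median score (MyoD 1.12% in control and 0.770% after siMyolinc, Myogenin 1.18% and 0.994%) and with peaks weighted by score (1.39% and 1.32%, 1.76% and 1.53%). In lists of equal length it was lost for MyoD alone (0.662% and 0.417%). The difference between antibodies was not tested, since 3 of them had 1 list per condition. The TDP-43 and Pol II S2P controls were the 4 shallow libraries, so depth and antibody cannot be told apart in this pattern.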

How the results depend on the processing

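Alternatives covered peaks at or above the median score, lists of equal length (8162 peaks), peaks of at least 10 tags, weighting by score, chromosomes 1 to 19 and X, simple repeats only, leaving out lists, and libraries of like depth. Scores were tied, so the median cut kept 50.2% to 71.2% of a list's peaks. Leaving out each list other than a TDP-43 control, the intron and intergenic denominator, exchanging labels only within antibodies, and the family shares and recurrence were added after seeing the data. Of 96 alternative values of the 6 tested shares, 82 kept direction and side of the threshold, 2 passed it and 12 changed direction. The (CA)n and (TG)n share, TDP-43 against other antibodies (8.26 points), passed the threshold at or above the median score (13.4) and weighted by score (9.51). This difference did not pass in lists of equal length (13.2, exact permutation p = 0.0619, adjusted 0.190), and was -2.54 at 10 tags or more. For TDP-43 control against siMyolinc (6.73) it was -2.32 at or above the median score. For all controls against siMyolinc (0.321) it was -4.73 at 10 tags or more, -7.79 in deep libraries alone and -2.94 within antibodies (exact permutation p = 0.406, 32 arrangements). The repeat share, TDP-43 against others (4.39), was -0.361 in shallow and -0.556 in deep libraries alone, and control against siMyolinc (5.34) was -0.0544 in deep libraries alone and 4.04 within antibodies (exact permutation p = 0.125). The deep controls were MyoD and Myogenin lists alone, so antibody and condition are mixed in the deep libraries. The cause of these changes was not tested.

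With 1 list left out at a time, the repeat share differences ranged from 3.34 to 6.50 points (TDP-43 against others), 4.61 to 6.49 (control against siMyolinc) and 7.90 to 8.80 (TDP-43 control against siMyolinc). The (CA)n and (TG)n differences ranged from 7.09 to 9.95, -1.13 to 2.18 and 6.35 to 7.08. The sign of the second of these turned without any TDP-43 control (-1.13, -0.971 and -0.842 without controls 1, 2 and 3) or without Myogenin siMyolinc (-0.398). Of the other 12 tests, 0 passed, and 1 passed at or above the median score and weighted by score; 3 passed without the Pol II S2P control, so that the counts ranged from 0 to 3.

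Overlap of repeat peaks between TDP-43 controls (mean 13.7% over 6 ordered pairs) moved by less than its spread in all alternatives and lay between 11.3% and 17.1% with a control left out. TDP-43 control peaks met by siMyolinc (2.29%, and 2.11% to 2.59% with a control left out) were 4.65% with peaks extended by 500 bp, 1.24% with repeat peaks alone as partners, 3.36% at or above the median score and 1.69% in lists of equal length. For Pol II S2P (3.18%) these were 12.5%, 1.45%, 1.85% and 0.281%, with 2.27% at an overlap of 50% of the shorter peak. For MyoD (1.25%) they were 9.71%, 0.267%, 0.201% and 0, and for Myogenin (0.457%) 2.10%, 0.229%, 0.133% and 0. The share of MyoD siMyolinc repeat peaks at or above the median score (18.7%) was 16.8% for simple repeats only. Units AC and GT without rotations could not be used, because 0 peaks carry those names. No paired analysis was possible because the groups compared share fewer than 2 replicate numbers; the comparison within antibodies above pairs by antibody, not by replicate. Whether low tag numbers bear on recurrence was not tested.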
